A study of Mus musculus with 36 samples.

Results

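The transcription factor NRF2, the product of Nfe2l2, is the main switch of the cellular antioxidant response. In resting cells its partner KEAP1 marks it for degradation. Oxidants and electrophiles modify KEAP1, NRF2 then accumulates, pairs with small MAF proteins and binds antioxidant response elements in front of genes for detoxification, glutathione synthesis and thioredoxin-linked repair. Superoxide dismutases and catalase form an adjoining line of defence, in which superoxide is turned into hydrogen peroxide and hydrogen peroxide into water. Contracting skeletal muscle releases superoxide from its mitochondria and its membrane oxidases, so these enzymes are often followed in exercise studies.

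The 10 genes described here were taken by name from a table of 46893 features. They are 6 enzymes commonly used as NRF2 readouts (Nqo1, Hmox1, Gclc, Gclm, Txnrd1 and Srxn1), catalase (Cat) and the 3 superoxide dismutases (Sod1, Sod2 and Sod3). All 10 passed the minimum of 25 counts per library on average that each test required, with mean counts from 136.639 per library (Sod3) to 3973.42 (Sod2). By the deposited GRCm39 coordinates of whole genes Nqo1 is at chr8:108114856-108139012 (minus strand), Hmox1 at chr8:75820246-75827221 (plus), Gclc at chr9:77661817-77701771 (plus), Gclm at chr3:122039206-122060864 (plus), Txnrd1 at chr10:82669785-82733558 (plus) and Srxn1 at chr2:151946738-151953296 (plus). Cat is at chr2:103284249-103315498 (minus), Sod1 at chr16:90017650-90023221 (plus), Sod2 at chr17:13226726-13237006 (plus) and Sod3 at chr5:52521146-52527080 (plus).

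The RNA came from the gastrocnemius, a mixed and mostly fast calf muscle, of 36 wild-type male C57BL/6 mice that were 3 to 4 weeks old at the start and were followed for 12 weeks. Sedentary mice ate a normal-fat diet (NFD-C) or a high-fat diet (HFD-C). The other mice ate the high-fat diet and ran in wheels for 2.1 km/day (HFD-25%), 4.2 km/day (HFD-50%), 6.3 km/day (HFD-75%) or 8.3 km/day (HFD-U, unrestricted running), where the percentages refer to the unrestricted distance. Each group held 6 mice with 1 library each. No group ran on the normal-fat diet, so running and its distance can be compared only on the high-fat diet.

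Between 13060090 and 27981702 counts were assigned to genes per library. Of 8 markers of skeletal muscle, 7 were abundant, and Mylpf, a fast myosin light chain, was close to 0 in every library (mean 0.797 CPM, counts scaled to library size). The libraries were of different kinds by their share of ribosomal RNA-linked counts. It was 2.01 to 3.80% in NFD-C and 2.12 to 3.54% in HFD-C mice 1 to 4, but 0.551 and 0.626% in HFD-C mice 5 and 6 and 0.404 to 1.02% in the 24 running mice. Most sedentary libraries are thus of the high-share kind and all running ones of the low-share kind, and values within the low-share kind, which holds only 2 HFD-C mice, are given beside the calls against HFD-C that they change. The library of HFD-50% mouse 4 stood apart from the rest. It held the highest CPM of all 36 libraries for 15.7% of 11949 genes, against at most 8.22% for any other library, and results that rest on it are given with and without it.

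Promoters are shown first, because the NRF2 readouts are defined by the element that NRF2 binds. The core of that element was searched as TGACNNNGC on both strands from 250 bases before to 50 bases after the start of each gene, in RefSeq promoters of GRCm38.p6. Of the 10 genes 7 were found there, with 9 promoters. Hmox1, Gclc and Sod3 had no entry. The core was found in Gclm, Srxn1, Sod1 and 1 of 3 Txnrd1 promoters, and not in this window of Nqo1, Cat or Sod2. Among all 32851 promoters 12.4% held it. The 4 sequences below belong to genes on which the results turn, and the capitals mark the core, which lies on the opposite strand in each case. In Gclm it starts 134 bases before the gene start, in Sod1 56 bases before it and in Srxn1 28 bases after it. The Srxn1 promoter also held the AP-1 site TGACTCA at 102 and 45 bases before the start, without overlap with the core, a site found in 5.2% of all promoters. Sequences are written 5′ to 3′ on the strand of the gene (chr8:107403156-107403455, minus strand, for Nqo1, chr3:122245307-122245606, plus strand, for Gclm, chr2:152105274-152105573, plus strand, for Srxn1, and chr16:90220512-90220811, plus strand, for Sod1).
Nqo1: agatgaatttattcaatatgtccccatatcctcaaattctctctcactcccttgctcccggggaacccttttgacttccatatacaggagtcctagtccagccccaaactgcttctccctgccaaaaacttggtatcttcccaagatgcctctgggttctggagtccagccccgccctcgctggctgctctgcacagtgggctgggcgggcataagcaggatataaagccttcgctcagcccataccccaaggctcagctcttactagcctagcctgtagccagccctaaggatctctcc
Gclm: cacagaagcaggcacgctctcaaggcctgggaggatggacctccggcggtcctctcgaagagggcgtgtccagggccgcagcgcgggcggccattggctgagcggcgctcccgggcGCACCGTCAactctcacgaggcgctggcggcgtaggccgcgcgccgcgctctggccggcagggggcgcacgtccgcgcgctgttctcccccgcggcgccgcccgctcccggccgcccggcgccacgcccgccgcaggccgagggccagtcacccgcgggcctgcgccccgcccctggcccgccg
Srxn1: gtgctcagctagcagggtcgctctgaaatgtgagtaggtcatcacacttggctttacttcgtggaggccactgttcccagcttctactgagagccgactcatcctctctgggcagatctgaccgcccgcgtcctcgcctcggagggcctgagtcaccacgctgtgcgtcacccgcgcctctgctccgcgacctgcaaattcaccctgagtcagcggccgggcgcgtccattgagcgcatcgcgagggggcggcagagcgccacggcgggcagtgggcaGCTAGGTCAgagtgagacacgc
Sod1: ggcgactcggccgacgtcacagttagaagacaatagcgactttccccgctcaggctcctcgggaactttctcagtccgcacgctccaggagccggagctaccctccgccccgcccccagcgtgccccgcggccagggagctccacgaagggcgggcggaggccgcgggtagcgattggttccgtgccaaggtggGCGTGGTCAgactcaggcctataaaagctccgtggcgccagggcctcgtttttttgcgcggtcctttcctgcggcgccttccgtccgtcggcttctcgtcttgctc
A match of these letters is a description of the sequence and says nothing of binding in these muscles.

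Per length of transcript, the superoxide dismutase of the cytosol was the most abundant of the 10 mRNAs. Mean FPKM (counts scaled to library size and transcript length) over the 36 mice was 112.7 for Sod1, 59.98 for the mitochondrial enzyme Sod2 and 42.42 for Cat. The NRF2 readouts were lower, with 17.38 for Txnrd1, 10.38 for Gclm, 9.281 for Srxn1, 8.168 for Nqo1, 5.558 for Gclc and 5.224 for Hmox1. The secreted enzyme Sod3 was lowest at 3.89. The order of the most abundant genes was therefore set by the dismutases and catalase rather than by the NRF2 readouts. Levels given below as CPM are scaled to library size and are compared only between mice for the same gene.

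Nqo1 encodes NAD(P)H quinone dehydrogenase, which reduces quinones in a single step and so keeps them from cycling with oxygen. Its mRNA was lower in running than in sedentary mice. In HFD-C it lay between 30.9 and 33.8 CPM with a median of 31.4, and in NFD-C between 26.4 and 37.3 with a median of 32.3. The sedentary groups overlapped fully and did not differ beyond the spread between mice (NFD-C against HFD-C 0.02 ± 0.10 SE on the log2 scale, 95% confidence interval of the ratio 0.879 to 1.18, exact permutation p = 0.885). In HFD-25% the range was 21.7 to 24.8 CPM with a median of 22.5. In HFD-50% it was 21.2 to 27.6 with a median of 24.9. In HFD-U it was 23.3 to 29.4 with a median of 25.1. None of these 18 runners reached the lowest HFD-C mouse. Values in HFD-75% were the most scattered, from 18.96 to 33.7 CPM with a median of 27.7, and 5 of 6 mice lay below HFD-C. Of all 24 runners 23 were below every HFD-C mouse and 15 were below every one of the 12 sedentary mice.

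**Figure D1:**
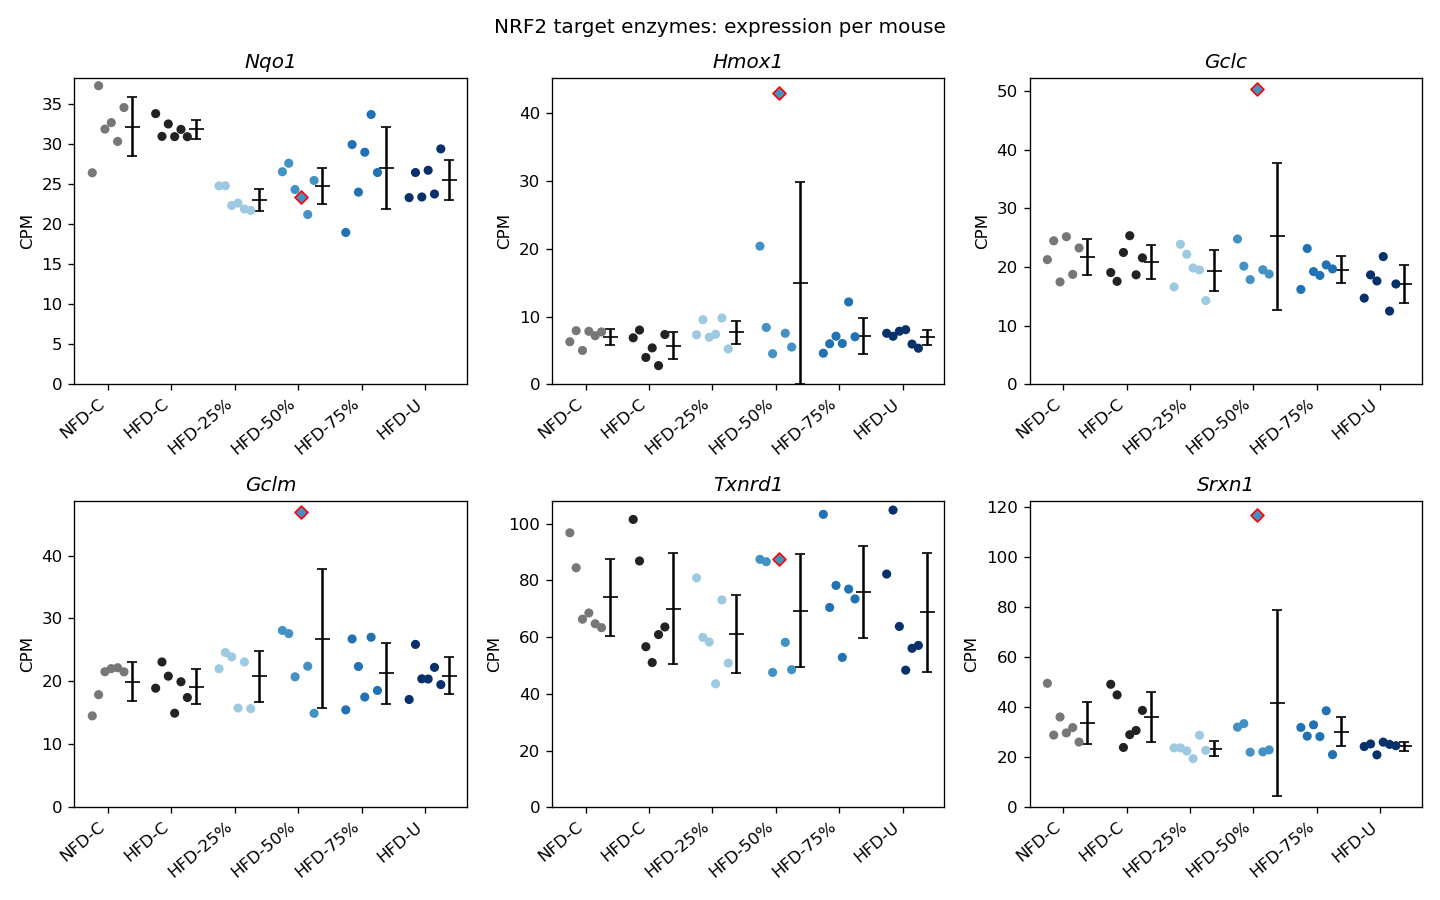
Expression of the 6 NRF2 readouts as CPM (vertical axes, from 0) in each of 6 groups, with 1 point per mouse in the order of mouse numbers and the group mean ± SD beside the points (n = 6). Nqo1 in HFD-25%, HFD-50% and HFD-U lies below all HFD-C mice, and the red-edged diamond, HFD-50% mouse 4, is the highest point for Hmox1, Gclc, Gclm and Srxn1.

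Against HFD-C, Nqo1 fell by 0.47 on the log2 scale in HFD-25% (SE 0.09, ratio 0.723), by 0.36 in HFD-50% (SE 0.10, ratio 0.780) and by 0.32 in HFD-U (SE 0.09, ratio 0.803). An exact permutation test of mean log2 CPM gave p = 0.00216 for each of them, two-sided, the smallest that 6 mice against 6 can give. The groups did not overlap in these 3 comparisons, which held for 0.209, 0.427 and 0.209% of 11949 genes in the same direction. With adjustment over all genes tested none of them passed 0.05 (edgeR adjusted p = 0.133, edgeR adjusted p = 0.192 and edgeR adjusted p = 0.582), a limit that 0.0082, 0.0 and 0.0% of all genes passed in these comparisons. In HFD-75% the difference was -0.23 (SE 0.12, 95% interval of the ratio 0.712 to 1.02), which was not called by edgeR (adjusted p = 0.967), while the exact permutation test gave p = 0.0390. Set against NFD-C in place of HFD-C, HFD-25% was lower by a log2 difference of -0.48 with an edgeR adjusted p of 0.0357, the smallest of 150 tests (10 genes, 15 pairs of groups) and the only one of them past 0.05. All NFD-C libraries are of the high-share kind and all HFD-25% ones of the low-share kind. Diet, running and library kind therefore cannot be told apart in this comparison, and the share of all genes past 0.05 was not counted for it. Among low-share libraries alone the differences from HFD-C were -0.43 in HFD-25%, which was called (edgeR adjusted p = 0.346), and -0.33 in HFD-50% and -0.30 in HFD-U, which were not (edgeR adjusted p = 0.535 and edgeR adjusted p = 0.428).

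Taken over all 6 groups, Nqo1 was the 1 gene of the 10 whose difference passed adjustment (edgeR quasi-likelihood F-test, adjusted p = 0.00925, a limit that 1.45% of 12053 genes passed). This adjusted p ranged from 0.000116 to 0.485 over 8 alternatives and was past 0.05 in 6 of them. With the ribosomal RNA-linked share as a covariate it was 0.290, and among low-share libraries alone it was 0.485. HFD-C mice 5 and 6, whose libraries are of the low-share kind like those of the runners, had 31.82 and 30.91 CPM of Nqo1. HFD-C mice 1 to 4 had 33.79, 30.95, 32.5 and 30.92 CPM, so mouse 6 was the lowest of the group by a small margin. In a comparison chosen after seeing the data, all 24 runners against HFD-C gave -0.35 on the log2 scale (SE 0.08, edgeR adjusted p = 0.0473, passed by 0.3% of all genes), and low-share libraries alone gave -0.32 (edgeR adjusted p = 0.299, with 2 HFD-C mice left). The fitted differences were -0.35 with all libraries and -0.32 with the low-share ones alone, and only the first passed adjustment. The second rests on 2 HFD-C mice, too few to say how far the difference depends on the library kind. The part of the library kind in this result was not tested beyond these fits.

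Group means of Nqo1 ran from 32.2 CPM in NFD-C and 31.8 in HFD-C to 27.0 in HFD-75%, 25.5 in HFD-U, 24.8 in HFD-50% and 23.0 in HFD-25%. No neighbouring pair in this order was called by edgeR. The lowest mean belonged to the shortest distance. HFD-U exceeded HFD-25% by 0.14 in mean log2 CPM (exact permutation p = 0.0476), but this pair was not called by edgeR (adjusted p = 0.928). With a linear plus a quadratic distance term, fitted to all 30 high-fat mice, Nqo1 was called without adjustment but did not pass with it (edgeR adjusted p = 0.248), and the 4 running groups overlapped each other.

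Srxn1 encodes sulfiredoxin, which reactivates peroxiredoxins after their oxidation by peroxide. Srxn1 was called lower than in HFD-C in HFD-25% and HFD-U, but not over all runners. All 24 runners against HFD-C, a comparison chosen after seeing the data, gave -0.27 on the log2 scale (SE 0.24, edgeR adjusted p = 0.807). Of these runners 10 were below every HFD-C mouse. HFD-C mice spread from 23.99 to 49.3 CPM with a median of 34.8, and NFD-C mice from 26.2 to 49.6 with a median of 30.9. In HFD-25% the values were 19.5 to 28.8 with a median of 23.3, and 5 of 6 mice lay below every HFD-C mouse. HFD-U was the tightest group, at 21.0 to 26.1 with a median of 24.9, and overlapped the low end of HFD-C. HFD-75% overlapped HFD-C widely, at 21.1 to 38.7 with a median of 30.3. In HFD-50% 5 mice were between 22.1 and 33.5 CPM and mouse 4 was at 116.8.

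Srxn1 fell by 0.62 on the log2 scale in HFD-25% (SE 0.16, ratio 0.651, exact permutation p = 0.00433, edgeR adjusted p = 0.371) and by 0.56 in HFD-U (SE 0.15, ratio 0.678, exact permutation p = 0.0130, edgeR adjusted p = 0.493). With the ribosomal RNA-linked share as a covariate these differences were -0.40 and -0.35 and were no longer called (edgeR adjusted p = 0.399 and edgeR adjusted p = 0.404). Among low-share libraries alone they were -0.55 and -0.51 and were called (edgeR adjusted p = 0.346 and edgeR adjusted p = 0.293). In HFD-75% the difference was -0.25 (exact permutation p = 0.273). In HFD-50% the edgeR fit gave 0.22 with all mice (SE 0.38, not called) and -0.44 without mouse 4 (SE 0.19, called, adjusted p = 0.436), so the direction of the fit rested on this 1 animal. Differences in mean log2 CPM were negative both with it (-0.06, exact permutation p = 0.929) and without it (-0.42, exact permutation p = 0.0974). Srxn1 was also compared between running groups, where no difference passed adjustment. Without adjustment it was called higher in HFD-75% than in HFD-25% (0.36 on the log2 scale, exact permutation p = 0.0390, edgeR adjusted p = 0.999). The same held for HFD-75% and HFD-U in the edgeR fit (HFD-U minus HFD-75% -0.31, exact permutation p = 0.0541, edgeR adjusted p = 0.789). The share of all genes called was not counted for these pairs. Over all 6 groups Srxn1 gave an edgeR adjusted p of 0.327, and 0.0757 without HFD-50% mouse 4.

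Hmox1, heme oxygenase 1, breaks heme down to biliverdin, carbon monoxide and iron. Its level was low and varied widely within groups. HFD-C ranged from 2.77 to 8.01 CPM with a median of 6.12, and NFD-C from 5.00 to 7.91 with a median of 7.45. The running groups HFD-25%, HFD-75% and HFD-U ranged from 5.23 to 9.79, 4.60 to 12.2 and 5.33 to 8.06. In HFD-50% the median was 7.97, with mouse 1 at 20.4 and mouse 4 at 42.9 CPM. Hmox1 rose by 1.39 on the log2 scale in HFD-50% (SE 0.49, 95% interval of the ratio 1.27 to 5.41, edgeR adjusted p = 0.321), but a difference in mean log2 CPM of 0.97 was not past 0.05 in the exact permutation test (p = 0.119). Without mouse 4 the fitted difference was 0.69 and was not called. Among low-share libraries alone it was 1.585 and was not called either (SE 0.88, edgeR adjusted p = 0.588). The calls of Hmox1 over 6 groups and with distance were lost as well (edgeR adjusted p = 0.781 and edgeR adjusted p = 0.578 without that mouse). Macrophages, a known source of Hmox1, were followed with 9 markers, of which 8 passed the count minimum, and the groups overlapped widely in summed CPM, with 40.1 to 95.7 for NFD-C, 60.4 to 105.0 for HFD-C, 48.9 to 105.5 for HFD-25%, 60.2 to 111.3 for HFD-50%, 37.1 to 95.01 for HFD-75% and 47.2 to 97.4 for HFD-U. HFD-50% mouse 4 was at 73.8 and ranked 14 of 36. In whole muscle, more RNA per cell and more cells of a type cannot be told apart.

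Gclc and Gclm encode the catalytic and the modifier subunit of glutamate-cysteine ligase, the rate-limiting enzyme of glutathione synthesis. Gclc ranged from 17.6 to 25.4 CPM in HFD-C and from 12.5 to 21.8 in HFD-U, where 3 of 6 mice were below HFD-C. The difference was -0.28 (SE 0.14, exact permutation p = 0.0541). HFD-C and HFD-U mice with the same number deviated together, and with the mouse number as a block the difference was -0.29 and was called (edgeR adjusted p = 0.385). Gclm rose by 0.49 on the log2 scale in HFD-50% (SE 0.22, edgeR adjusted p = 0.445), and lost this call in 7 of 12 fits that left out 1 mouse, including that without mouse 4 (0.24). It was not called with the ribosomal RNA-linked share as a covariate (0.60, edgeR adjusted p = 0.451) or among low-share libraries alone (0.53, edgeR adjusted p = 0.654). Gclm was 14.96 to 23.1 CPM in HFD-C and 14.9 to 28.1 in the other 5 HFD-50% mice. The subunits did not move in parallel, with a Spearman correlation of 0.265 over the 36 mice, which share groups and library kinds.

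Txnrd1, the cytosolic thioredoxin reductase, was not called in any comparison with HFD-C. Its group means were 61.1 CPM in HFD-25%, 68.7 in HFD-U, 69.3 in HFD-50%, 70.1 in HFD-C, 74.0 in NFD-C and 75.9 in HFD-75%. The 95% intervals of its ratio to HFD-C spanned 0.664 to 1.41 over the 5 comparisons.

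Among the antioxidant enzymes outside the classical NRF2 readouts, no running group was called against HFD-C. Cat, which splits hydrogen peroxide in peroxisomes, lay between 63.0 and 177.8 CPM in HFD-C and between 64.8 and 191.3 in the runners. Its fitted ratios to HFD-C were 0.888 for HFD-25%, 0.930 for HFD-50%, 1.02 for HFD-75% and 0.944 for HFD-U. The 95% intervals of these ratios spanned 0.623 to 1.45. Sod2, the manganese enzyme of the mitochondrial matrix, had fitted ratios of 1.02, 1.01, 1.09 and 1.02 in the same order, with intervals spanning 0.772 to 1.39. Sod1, the copper-zinc enzyme of the cytosol, had ratios of 0.976, 1.22, 1.17 and 1.06. None of the 3 genes showed a difference beyond the spread between mice in these comparisons. Sod1 was called in HFD-25%, lower, only with the ribosomal RNA-linked share as a covariate (-0.33, edgeR adjusted p = 0.339) and among low-share libraries alone (-0.35, edgeR adjusted p = 0.417).

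**Figure D2:**
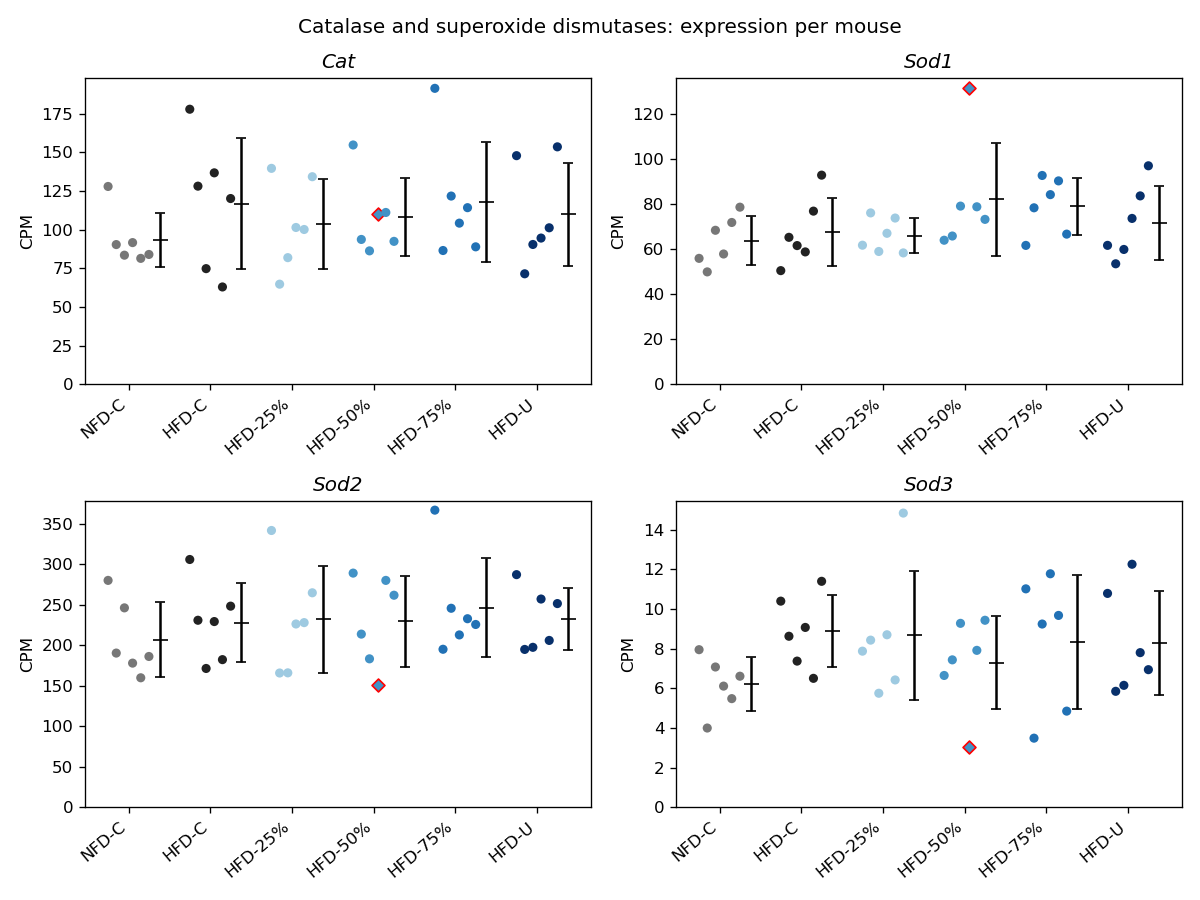
Expression of catalase and the 3 superoxide dismutases as CPM (vertical axes, from 0) in each of 6 groups, with 1 point per mouse in the order of mouse numbers and the group mean ± SD beside the points (n = 6). The first point of each group, mouse 1, is the highest for Sod2 in 6 of 6 groups, and the red-edged diamond, HFD-50% mouse 4, is the highest point of all 36 for Sod1 and the lowest for Sod2 and Sod3.

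Sod3 encodes the extracellular superoxide dismutase, which binds to the matrix around vessels and cells. It was the only gene of the 10 called between the diets when all mice of both groups were compared without a covariate. NFD-C mice had 4.003 to 7.95 CPM with a median of 6.37, and HFD-C mice 6.51 to 11.4 with a median of 8.85, with 3 of 6 NFD-C mice below HFD-C. Sod3 was lower in NFD-C by a log2 difference of -0.51 (SE 0.19, 95% interval of the ratio 0.534 to 0.923, exact permutation p = 0.0195), which did not pass adjustment (edgeR adjusted p = 0.9996). In 1 fit over all 36 mice it was not called. In the running groups the difference from HFD-C was between -0.28 and -0.04. Fibroblasts and vessels are known sources of Sod3. The summed CPM of 5 fibroblast markers, all above the count minimum, was 326.5 to 484.3 in NFD-C and 310.1 to 563.4 in HFD-C, and the groups overlapped. The sum of 8 slow-fibre markers had a lower median in NFD-C, and the groups overlapped. It was 38.3 to 2058 CPM with a median of 144.9 in NFD-C and 162.4 to 2430 with a median of 1316 in HFD-C. Neither this difference nor its part in the differences between the diets was tested. Cat differed between NFD-C and HFD-C by -0.32 on the log2 scale and was not called (edgeR adjusted p = 0.9996, exact permutation p = 0.335). It was called with the ribosomal RNA-linked share as a covariate (-0.51, edgeR adjusted p = 0.535), in the high-share libraries alone (-0.47, edgeR adjusted p = 0.952) and without HFD-C mouse 5 (-0.45).

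Between 0 and 3 of the 10 genes were called per group (edgeR, unadjusted p of at most 0.05 against HFD-C). In NFD-C it was 1 gene, Sod3, among 4.12% of all genes tested, of which 2.14% were lower. HFD-25% had 2, Nqo1 and Srxn1, both lower, where 6.98% of all genes were called and 3.58% were lower. HFD-50% had 3, with Hmox1 and Gclm higher and Nqo1 lower, where 10.7% of all genes were called, 5.8% higher and 4.89% lower. HFD-75% had 0 where 5.47% of all genes were called. HFD-U had 2, Nqo1 and Srxn1, both lower, where 5.46% were called and 3.31% were lower. The test of distance called 2 of the 10, Nqo1 and Hmox1, where 12.2% of all genes were called, and 0 passed adjustment where 0.683% did. The 6-group test called 3, Nqo1, Hmox1 and Srxn1, where 12.2% were called. A single call among 10 genes is close to these backgrounds. In the exact permutation test 1 of the 10 genes was past 0.05 for NFD-C, 2 for HFD-25%, 1 for HFD-50%, 1 for HFD-75% and 2 for HFD-U. That test was run on the 10 genes alone, so its counts have no share of all genes beside them. The median log2 difference of the 10 genes was -0.03 for NFD-C, -0.07 for HFD-25%, 0.12 for HFD-50%, 0.07 for HFD-75% and -0.05 for HFD-U, beside medians over all genes between -0.01 and 0.01. These comparisons share the HFD-C mice and are not independent of each other.

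**Figure D3:**
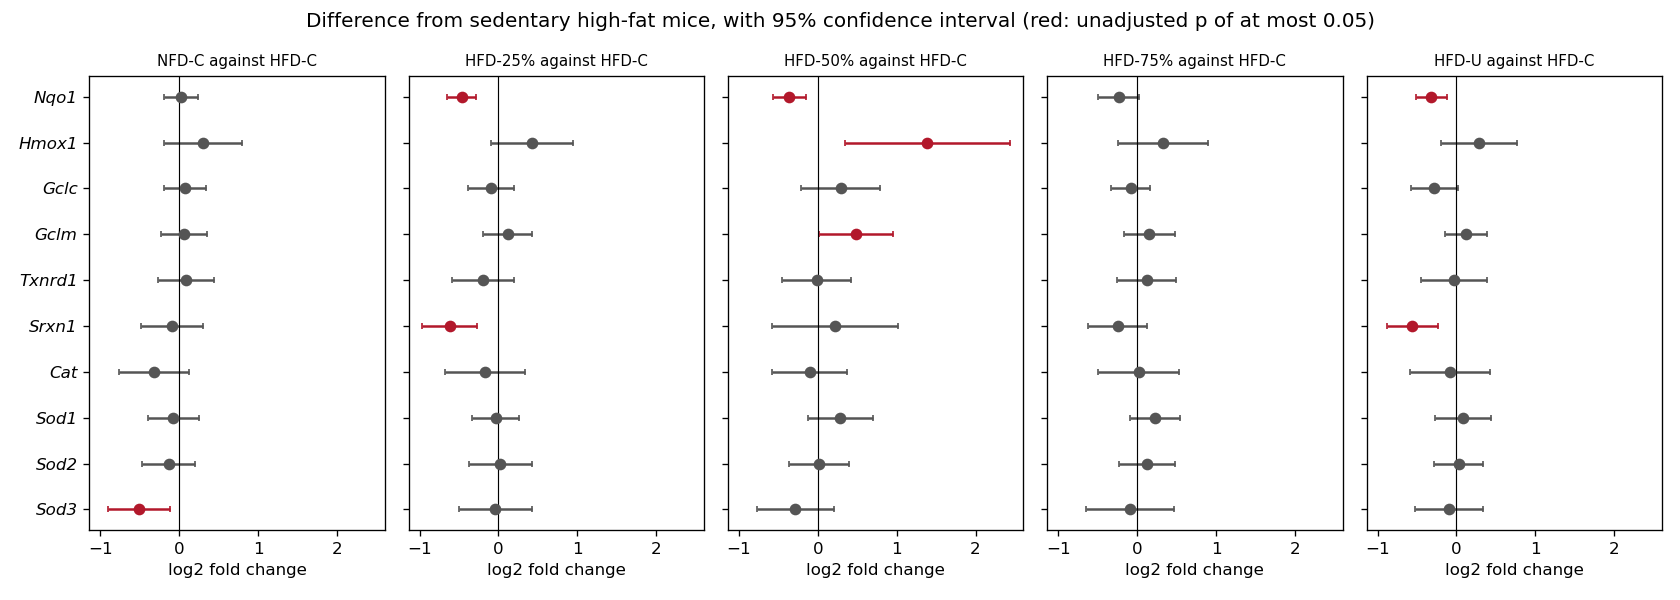
Log2 fold change of each of the 10 genes against HFD-C (horizontal axes) with its 95% confidence interval, in 1 panel for each other group (6 mice against 6). Red marks an unadjusted p of at most 0.05, which Nqo1 reached in HFD-25%, HFD-50% and HFD-U, Srxn1 in HFD-25% and HFD-U, Hmox1 and Gclm in HFD-50% and Sod3 in NFD-C.

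The middle distance was set against unrestricted running directly. Of the 10 genes 2 were higher in HFD-50% than in HFD-U, where 12.4% of all genes were called and 7.08% were higher. In the edgeR fit Hmox1 differed by 1.10 on the log2 scale (adjusted p = 0.362) and Gclc by 0.57 (adjusted p = 0.365). Mean log2 CPM differed by 0.615 for Hmox1 (exact permutation p = 0.331) and by 0.478 for Gclc (exact permutation p = 0.0584). Without HFD-50% mouse 4 these differences were 0.40 and 0.24, and 0 of the 10 genes were called. Nqo1 differed by -0.04 in mean log2 CPM between these distances (exact permutation p = 0.608).

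HFD-50% mouse 4 was then described by itself, as an animal with a distinct profile across these genes. Hmox1 was at 42.9 CPM against a mean of 9.27 in the other 5 HFD-50% mice, a ratio of 4.63. Srxn1 was at 116.8 against 26.6 (ratio 4.39), and Gclc at 50.3 against 20.2 (ratio 2.48). Gclm was at 47.0 against 22.8 (ratio 2.06) and Sod1 at 131.9 against 72.3 (ratio 1.82). These 5 genes had their highest value of all 36 mice in this animal, which is 50.0% of the 10 genes against 15.7% of all genes. Txnrd1 was raised less, at 87.4 against 65.7 CPM (ratio 1.33), and Cat hardly differed, at 110.4 against 107.6.

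The remaining genes were not raised in this mouse. Nqo1 was at 23.4 CPM against 25.0 (ratio 0.936), inside the 21.2 to 27.6 CPM of its group. The readout that fell with running was thus not raised where 4 other NRF2 readouts were at their highest. Sod2 was at 151.0 against 245.7 and Sod3 at 3.07 against 8.15 CPM, and both were the lowest of all 36 mice. The share of all genes with their lowest value in this mouse was not counted, so these minima have no background beside them. In this library the cytosolic dismutase was at its maximum and the mitochondrial and secreted ones were at their minimum.

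Of 9 genes tested that control the pathway, 4 were at their highest of all 36 in the same mouse. Nfe2l2, which encodes NRF2, was at 122.2 CPM against 44.1 (ratio 2.77). The small MAF partners Maff and Mafk were at 22.2 against 2.84 (ratio 7.83) and 56.3 against 19.6 (ratio 2.87). Sqstm1, which encodes the KEAP1-binding adaptor p62, was at 1341 against 705.5 (ratio 1.90). The other 5 were nearer to the rest of the group. Keap1 was at 76.9 against 67.5 (rank 8 of 36), Mafg at 139.5 against 113.6 (rank 2) and Bach1 at 59.1 against 49.8 (rank 7). Cul3, the ligase scaffold that works with KEAP1, was at 228.9 against 239.4 (rank 28), and Nfe2l1, a relative of NRF2, at 393.2 against 508.4 (rank 34). Of 19 glutathione enzymes tested 8 were highest of all mice, among them the transferases Gstm1 (217.5 against 115.3 CPM) and Gstm2 (112.3 against 28.9). Other transferases were the lowest of all 36, Gsta4 at 6.59 against 11.04 CPM and Gstt1 at 2.08 against 6.15. The thioredoxin and peroxiredoxin list had 3 of 20 highest and the NADPH supply list 0 of 8, close to or below the share of all genes. In the first of these lists Glrx, Msra, Msrb2 and Msrb3 were each the lowest of all 36.

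**Figure D4:**
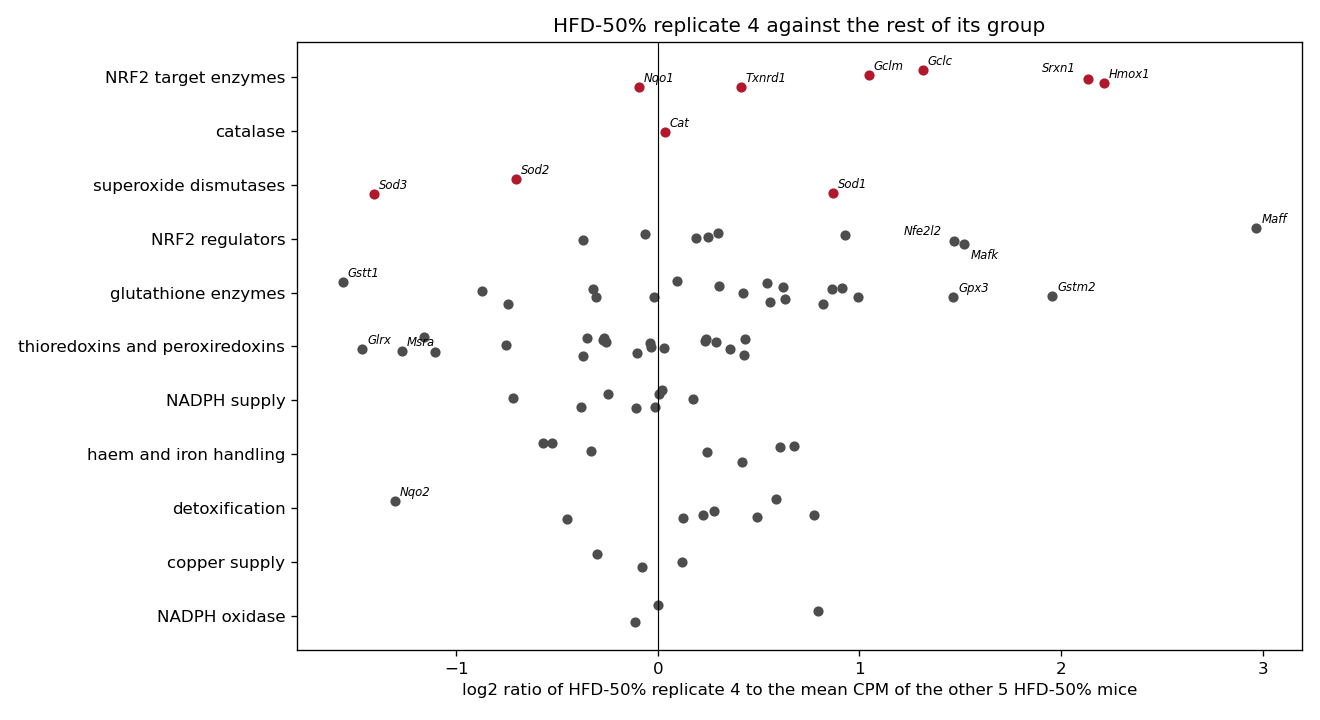
Log2 ratio of the CPM of HFD-50% mouse 4 (replicate 4) to the mean of the other 5 mice of its group (horizontal axis), with 1 point per gene and 1 row per gene list. Red points are the 10 genes described here, of which Hmox1, Srxn1, Gclc, Gclm and Sod1 lie to the right and Sod3 and Sod2 to the left, and grey points are other genes of the pathway.

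Other measures of this library give its context. It held 17001956 counts, its ribosomal RNA-linked share was 1.02%, the highest of the runners, and its mitochondrial share was 18.9%, within the 10.9 to 23.3% of all libraries. Its summed CPM of 5 fibroblast markers was 193.1 and that of 5 smooth muscle markers, of which 3 passed the count minimum and Tagln was close to 0, was 87.98, the lowest of all 36 in each case. Of the smooth muscle markers only Smtn was itself the lowest, at 28.98 CPM against a median of 69.85 in the other mice. Acta2 ranked 20 of 36, Myh11 22, Cnn1 16 and Tagln 9, so the low sum is not shared by these markers. Over all mice of a group these sums ranged from 193.1 to 476.6 and from 87.98 to 194.6 in HFD-50%, and from 310.1 to 563.4 and from 101.5 to 189.7 in HFD-C. Its sum of 5 blood markers was 352.6 and ranked 4 of 36. Its sum of 8 skeletal muscle markers ranked 33 of 36, and these markers did not move together. Acta1, the skeletal muscle actin, was at 14180 CPM, the lowest of all 36. Myh4 ranked 34, Ckm 33, Ttn 31 and Mylpf, close to 0 in every library, 21, while Myh1 ranked 4, Tnnt3 5 and Actn3 9. The part of these differences in the profile of the NRF2 genes was not tested.

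Cat, Sod2 and Txnrd1 were highest in the mouse numbered 1 in most groups. The labels number the mice 1 to 6 in every group without saying what a number marks. Sod2 was highest in mouse 1 in 6 of 6 groups, at 280.2 to 366.9 CPM against 151.0 to 280.2 in the 30 other mice. Cat was highest in mouse 1 in 5 of 6 groups, at 127.9 to 191.3 against 63.0 to 153.5. Txnrd1 was highest in mouse 1 in 5 of 6 groups, at 80.9 to 103.3 against 43.6 to 104.8. Mouse 1 was highest in all 6 groups for 4.30% of 11949 genes, and mice 2 to 6 for at most 0.0335%, so this feature was not limited to the antioxidant enzymes. Nqo1 and Sod3 were highest in mouse 1 in 1 group each and Hmox1, Gclc, Gclm and Sod1 in 0. Summed slow-fibre markers were 707.3 to 2058 CPM in mice 1 and 38.3 to 4072 in the others, and mitochondrial shares were 14.7 to 16.2% and 10.9 to 23.3%. Their part in the pattern was not tested.

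**Figure D5:**
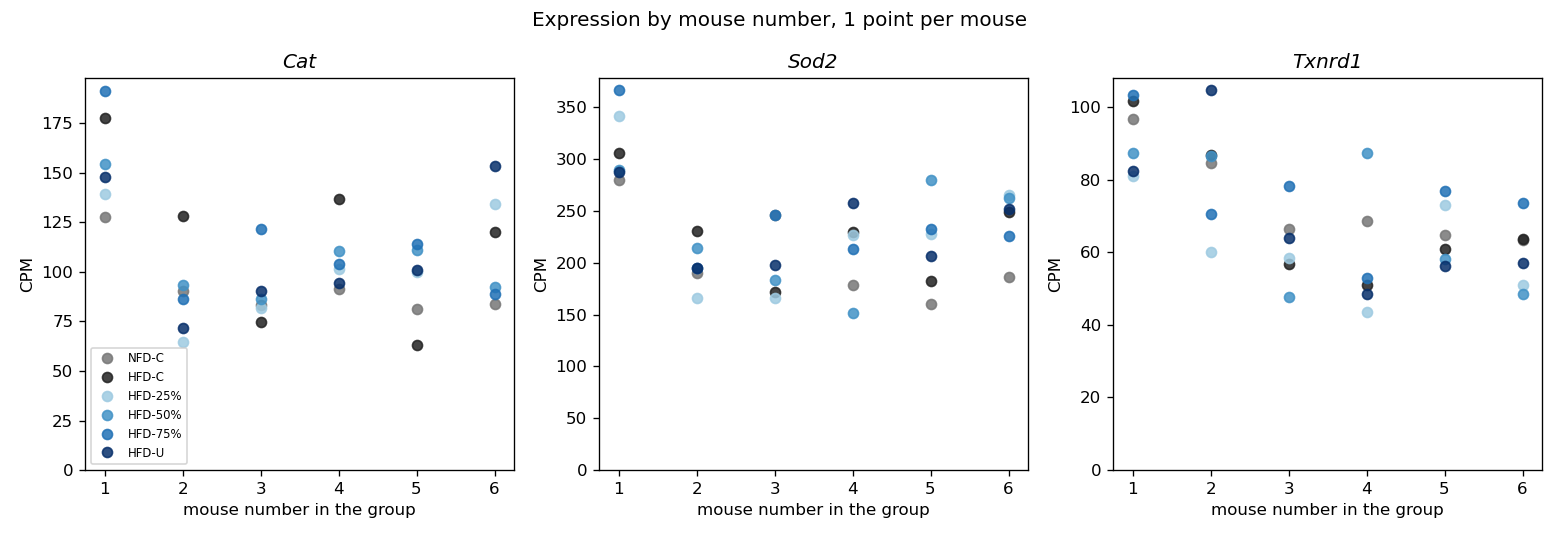
CPM of Cat, Sod2 and Txnrd1 (vertical axes, from 0) by the number of the mouse in its group (horizontal axes), with 1 point per mouse and colours for the 6 groups. Mice numbered 1 hold the highest Sod2 value in each of 6 groups and the highest Cat and Txnrd1 values in 5 of 6.

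Across the 36 mice, Cat and Sod2 varied together (Spearman rho = 0.795), as did Sod2 and Sod3 (0.600) and Txnrd1 and Srxn1 (0.604). Nqo1 had its closest match among the 10 in Srxn1 (0.460), and Hmox1 had its own in Gclm (0.526). Among all genes past the count minimum, those most like Sod2 were Dlst (0.958), a subunit of the 2-oxoglutarate dehydrogenase complex, and Mfn1 (0.955), a mitochondrial fusion protein. Those most like Cat were Acat1 (0.914), a mitochondrial thiolase, and Fhl1 (0.905). Txnrd1 was most like Psmd11 (0.893), a proteasome subunit, and Arih1 (0.867), and Sod1 most like Polr2l (0.883) and Edf1 (0.838). Srxn1 was most like Tnfrsf12a (0.812), the receptor of the cytokine TWEAK, and Myo18b (0.781), and Sod3 most like Sirt3 (0.784) and Ccdc80 (0.784). For Nqo1 the genes were Tiam1 (0.737) and Gm12070 (0.731), for Hmox1 Plrg1 (0.676) and Ythdf2 (0.673), for Gclc Rbm3 (0.697) and Lonrf3 (0.674), and for Gclm Ftsj3 (0.693) and Mafg (0.680), a small MAF partner of NRF2. These correlations are descriptions over mice that share groups, library kinds and mouse numbers, and no test was attached to them.

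The wider pathway was followed with a list of 84 genes (regulators of NRF2, glutathione enzymes, thioredoxins and peroxiredoxins, NADPH supply, heme and iron handling, detoxification, copper supply and NADPH oxidase subunits), of which 78 to 80 were tested in the comparisons with HFD-C. Neither Nfe2l2 nor Keap1 was called in any comparison with HFD-C. Nfe2l2 differed on the log2 scale by -0.09 for HFD-25%, 0.29 for HFD-50%, -0.10 for HFD-75% and -0.22 for HFD-U. Without HFD-50% mouse 4 the second value was -0.09, so its direction rested on that animal.

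HFD-50% had 6 of 78 called, all higher, which is 7.69% beside 10.7% of all genes. The smallest p were those of Osgin1, an oxidative stress-induced growth inhibitor (log2 difference 0.65, edgeR adjusted p = 0.195), Aox1, aldehyde oxidase (0.70, edgeR adjusted p = 0.211), and Txnip, the inhibitor of thioredoxin (0.50, edgeR adjusted p = 0.230). HFD-25% had 2 of 80, both higher, Blvrb, a biliverdin reductase (0.63), and Abcc4, an export pump (0.37). HFD-75% had 3 higher and 2 lower of 78. Osgin1 (0.54) and Txnip (0.38) were among those higher, and the export pump Abcc1 was among those lower (-0.37). HFD-U had 1 higher and 3 lower of 78. The small MAF gene Mafk (-0.43) and Pgd of the pentose phosphate pathway (-0.34) were lower, and Abcc4 was higher (0.35). In HFD-U against HFD-C the block of mouse numbers raised the count from 4 (5.13% of the list beside 5.46% of all genes) to 7 (8.97% beside 10.2%). The share of all genes thus rose as well and stayed above that of the list.

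NFD-C differed from HFD-C in 6 of 79, with 1 higher and 5 lower. Osgin1 was higher (0.37). Msra, a methionine sulfoxide reductase (-0.33), and Idh2, the mitochondrial NADPH-forming isocitrate dehydrogenase (-0.97), were lower. With distance 6 of 77 were called (7.79% beside 12.2% of all genes). Txnip (edgeR adjusted p = 0.0663), Osgin1 (edgeR adjusted p = 0.0793) and Aox1 (edgeR adjusted p = 0.255) had the smallest p. None of the wider list passed adjustment in these comparisons. Its shares lay between 2.50 and 7.79%, above the backgrounds in NFD-C (7.59% beside 4.12%) and HFD-75% (6.41% beside 5.47%) and below them in the others. These counts depended on how the library kind was treated. With the ribosomal RNA-linked share as a covariate 17.5% of the list was called for HFD-25% beside 13.4% of all genes, and 20.5% beside 14.5% for HFD-U. Among low-share libraries alone the shares were 19.0% beside 11.6% and 17.1% beside 11.8%.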

How the data were processed

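Gastrocnemius RNA of 36 mice was sequenced after poly(A) selection as 1 paired-end library per mouse. The authors deposited raw counts per gene, and the submitters' processing notes list HISAT2 2.0.5 and featureCounts 1.5.0-p3 and the build mm10, while chromosome sequences named in the deposited table are those of GRCm39. All 36 deposited count columns were matched to mice. Replicates differed by 16.24 to 218.1 times the sampling variance (chi-square per degree of freedom), so none was counted as a duplicate.

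Tests were run with edgeR 4.0.16 in R 4.3.3 (TMM, quasi-likelihood F-test, two-sided, Benjamini-Hochberg adjustment over all genes averaging at least 25 counts per library of the fit). Groups were compared in fits of 2 groups, over all 6 groups, and over the distance (linear and quadratic term, 30 mice on the high-fat diet). Genes were called at an unadjusted p of at most 0.05, the limit used in the study, and the adjusted p is given beside it. CPM used TMM-scaled library sizes, and FPKM also the deposited gene lengths. Of the wider list, up to 3 genes per comparison, ranked by p, were named. Genes described in HFD-50% mouse 4 alone were picked with their values known. For single values of the 10 genes an exact permutation test of mean log2 CPM (all 924 splits of 6 and 6 mice, two-sided, 15 pairs of groups) was added after seeing the data. The 2 genes most like each member were found by Spearman correlation. The members, lists and tests were chosen with earlier results of these data known. Alternatives were DESeq2 1.42.0, its size factors, no minimum count, the mouse number as a block, the ribosomal RNA-linked share as a covariate, libraries of one kind by that share (divided at 1.5%), leaving out the mice numbered 1 or each mouse in turn, 1 fit of all mice, a linear term alone and the 24 running mice alone. Leaving out HFD-50% mouse 4 from the comparison with HFD-U and from the 6-group test, and all runners against HFD-C, were added after seeing the data. HFD-U and HFD-C mice of the same number deviated together (correlation 0.1351 to 0.5342 in 6 of 6 pairs), and blocked values are given there. In the other comparisons fewer pairs did. Labels do not say that mice of a group came from separate cages, and p-values measure the spread between these mice. The edgeR step was tested on simulated data.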

Additional observations from a re-analysis of the deposited data

Results flagged for a closer look

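Of 60 sets of 6 mice (10 genes in 6 groups), 10 held a value far from the other 5 by Dixon's criterion, where chance gives about 1 in 20. In 3 of them the mouse was HFD-50% mouse 4, with Gclc at 50.27, Srxn1 at 116.8 and Sod1 at 131.9 CPM, where the next values of the group were 24.78, 33.51 and 79.24. In 4 of them it was a mouse numbered 1, with Cat at 127.9 CPM in NFD-C, 154.7 CPM in HFD-50% and 191.3 CPM in HFD-75%, and Sod2 at 366.9 CPM in the last of these groups. The remaining 3 were Hmox1 at 12.15 CPM in HFD-75% mouse 5, Srxn1 at 21.04 CPM in HFD-U mouse 3, the lowest of its group, and Sod3 at 14.84 CPM in HFD-25% mouse 6. The effects of HFD-50% and HFD-U against HFD-C differed (edgeR, unadjusted p of at most 0.05) for Hmox1 (1.10 on the log2 scale, edgeR adjusted p = 0.362) and for Gclc (0.57, edgeR adjusted p = 0.365), and neither was called without HFD-50% mouse 4.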

How the results depend on the processing

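Nqo1 kept its direction in all 4 running groups against HFD-C in each of 20 alternatives, and was called in 20 of them for HFD-25%, 19 for HFD-50%, 2 for HFD-75% and 19 for HFD-U. Its adjusted p over 6 groups was 0.2901 with the ribosomal RNA-linked share as a covariate and 0.4849 in libraries of one kind. Srxn1 for HFD-50% against HFD-C ranged from -0.444 to 0.348 with each mouse left out in turn, and only the fit without HFD-50% replicate 4 reversed it (-0.444). It was -0.0996 and not called with the replicate block. The number of the 10 genes called changed from 1 for NFD-C to 2 with the share as a covariate and 2 in libraries of one kind (Sod3 and Cat in both) and to 0 in 1 fit of all mice. It changed from 3 to 0 for HFD-50% in libraries of one kind (Nqo1, Hmox1 and Gclm were lost), from 0 to 1 for HFD-75% in 1 fit of all mice, and from 2 to 1 for HFD-U with the covariate (Nqo1 remained) and to 1 in libraries of one kind (Srxn1 remained). For HFD-50% against HFD-U it was 1 with the replicate block and 0 with the covariate, 0 without the mice numbered 1 and 0 without HFD-50% replicate 4. With distance it was 1 with the covariate, in libraries of one kind, without the mice numbered 1 and in the 24 running mice alone, and 0 with a linear term alone. With each mouse left out in turn it was 1 to 2 for NFD-C, 2 to 3 for HFD-25%, 2 to 3 for HFD-50%, 0 to 1 for HFD-75%, 2 to 3 for HFD-U and 1 to 3 with distance.

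The number of genes of the wider list called with the covariate was 13 for NFD-C (16.5% of the list tested, beside 8.37% of all genes in the same fit), 14 for HFD-25% (17.5% beside 13.4%), 10 for HFD-50% (12.8% beside 11.1%), 12 for HFD-75% (15.4% beside 10.6%) and 16 for HFD-U (20.5% beside 14.5%). In libraries of one kind it was 15 for HFD-25% (19.0% beside 11.6%), 9 for HFD-75% (11.8% beside 8.99%) and 13 for HFD-U (17.1% beside 11.8%). With the replicate block it was 11 for NFD-C (13.9% beside 6.94%), 6 for HFD-25% (7.5% beside 8.28%), 12 for HFD-50% (15.4% beside 14.1%), 7 for HFD-U (8.97% beside 10.2%) and 11 with distance (14.3% beside 17.6%). Without a minimum count it was 11 for NFD-C (13.1% beside 8.59%) and 4 for HFD-25% (4.76% beside 9.18%), and in 1 fit of all mice 4 for HFD-25% (5.19% beside 8.21%) and 11 for HFD-50% (14.3% beside 14.99%). Without the mice numbered 1 it was 3 for HFD-75% (3.95% beside 5.52%), and with a linear term alone 3 with distance (3.9% beside 3.95%). With each mouse left out it was 1 to 9 for NFD-C, 2 to 6 for HFD-25%, 5 to 7 for HFD-50%, 2 to 8 for HFD-75%, 2 to 6 for HFD-U and 4 to 9 with distance. The cause of these changes was not tested. Mice of the same number deviated together in HFD-U against HFD-C, where the block changed the call of Gclc and of no other gene of the 10. The labels do not say that these mice were paired. Library kind and running can be separated only through HFD-C mice 5 and 6, so the precision of these fits is limited by 2 mice.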
